A study of Mus musculus with 34 samples.

Results

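The genes described are 10 components of the NF-κB pathway, found by name among the 13108 gene rows of the count table: the DNA-binding subunits Nfkb1, Nfkb2, Rel, Rela and Relb, the inhibitors Nfkbia, Nfkbib and Nfkbie, the feedback regulator Tnfaip3 and the kinase Ikbkb. All 10 were in the table, and all 10 had enough counts to be tested in every comparison. They were measured by RNA-seq in hematopoietic stem cells (HSCs; LSK CD48-CD150+) sorted in samples of 100 cells, with 2 SMART-Seq2 libraries per mouse. Ythdf2 CKO mice were Ythdf2 fl/fl with Vav-iCre, which is active throughout the hematopoietic system. Deletion of the m6A reader YTHDF2 was thus directed at blood cells in general and not at HSCs alone. In the floxed allele the loxP sites flank exon 2 of Ythdf2. Ythdf2 CTL mice were Ythdf2 fl/fl without Cre. Mice of all groups were on C57BL/6 and carried the floxed allele, which also holds a GFP reporter. Young mice, for which the labels give no age in weeks, comprised 4 Ythdf2 CTL and 4 Ythdf2 CKO mice, and aged mice, 1 yr old, comprised 4 Ythdf2 CTL and 5 Ythdf2 CKO mice.

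NF-κB is a family of dimeric transcription factors made of RelA, RelB, c-Rel and the products of Nfkb1 (p105 and p50) and Nfkb2 (p100 and p52). IκB proteins hold the dimers in the cytoplasm until the IκB kinase complex phosphorylates them and marks them for degradation, after which the dimers enter the nucleus. Several inhibitors, Nfkbia and Tnfaip3 among them, are themselves NF-κB target genes and so close a negative feedback loop, and in HSCs the pathway is known as a mediator of inflammatory signals such as TNF and IL-1. RNA levels, which were measured here, report neither the location nor the activity of these proteins.

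One library, from aged Ythdf2 CTL mouse 99, held 187034 counts and was left out, as in the submitters' description. The other 33 libraries held between 1859784 and 7784627 counts, and the summed counts of a mouse ranged from 2218618 to 10125624. Levels are given as CPM, that is, counts relative to the TMM-adjusted size of each library pool. All 14 HSC markers examined were detected, whereas markers of other lineages were mixed. Some were at or near 0 in every mouse: Ms4a1 had no counts, and the highest level in a mouse was 1.24 CPM for Cd79a, 2.39 CPM for Csf1r, 3.11 CPM for Elane and 2.41 CPM for Hba-a1. Other listed genes of these lineages were present, with highest levels of 2765 CPM for Pf4, 888 CPM for Lyz2, 530.4 CPM for Nkg7, 518 CPM for Prtn3, 152 CPM for Cd79b, 80.8 CPM for Mpo, 59.1 CPM for Klf1, 56.8 CPM for Car1 and 53.2 CPM for Epor. In bulk RNA of this kind, fewer cells of a type and less RNA per cell cannot be told apart. The library names in the submitters' descriptions share one code among young and another among aged mice. What the code stands for is not given in the sources used here, and age and whatever it marks cannot be told apart.

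The targeted gene was examined first. In young mice Ythdf2 was at 93.4, 97.2, 118 and 123 CPM in Ythdf2 CTL and at 50.3, 55.6, 57.6 and 60.3 CPM in Ythdf2 CKO mice. The groups were apart (mean difference of −0.92 on the log2 scale, two-sided exact permutation p = 0.0286, the smallest p that 4 against 4 mice allow). In aged mice it was at 70.5, 142, 164 and 179 CPM in Ythdf2 CTL and at 72.4, 73.8, 75.8, 87.8 and 188 CPM in Ythdf2 CKO mice. The libraries labelled aged Ythdf2 CTL 124 (70.5 CPM) and aged Ythdf2 CKO 121 (188 CPM) each lay apart from the other mice of their group, mouse 124 below all 5 Ythdf2 CKO mice and mouse 121 above all 4 Ythdf2 CTL mice, and the difference of −0.50 did not pass (exact permutation p = 0.246, smallest possible 0.00794). The aged comparisons were therefore also run without these 2 mice.

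Levels of the 10 genes were compared with each other per kilobase of their principal transcript, since longer transcripts collect more reads. Nfkbia, which encodes IκBα, was the most abundant in every group, at 183 ± 44.2 CPM per kilobase in young Ythdf2 CTL mice (SD, n = 4). Nfkb1 followed at 27.8 ± 4.54, Rela at 25.8 ± 2.87, Ikbkb at 18.9 ± 4.99, Nfkbib at 18.8 ± 3.28 and Nfkbie at 11.4 ± 3.45 CPM per kilobase. The remaining 4 were lower, with Relb at 4.16 ± 0.901, Tnfaip3 at 3.24 ± 2.19, Nfkb2 at 2.52 ± 0.915 and Rel, which encodes c-Rel, at 0.852 ± 0.288 CPM per kilobase. Neighbours in this order overlapped in the ranges of their mice in 6 of 9 cases. Nfkbia stood clear of Nfkb1, the lowest Nfkbie mouse (6.64) was above the highest Relb mouse (5.24), and Nfkb2 was above Rel by a narrow margin (lowest mouse 1.260, highest mouse 1.259). Rela was above Nfkb1 in the other 3 groups, at 33.1 against 25.3 in young Ythdf2 CKO, 42.6 against 37.0 in aged Ythdf2 CTL and 62.0 against 44.2 CPM per kilobase in aged Ythdf2 CKO mice, and in the last of these alone the ranges did not overlap. With all annotated exons of a gene as its length, Nfkbia stayed first and Rel last in every group, but Rela ranked above Nfkb1 in young Ythdf2 CTL mice.

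**Figure D1:**
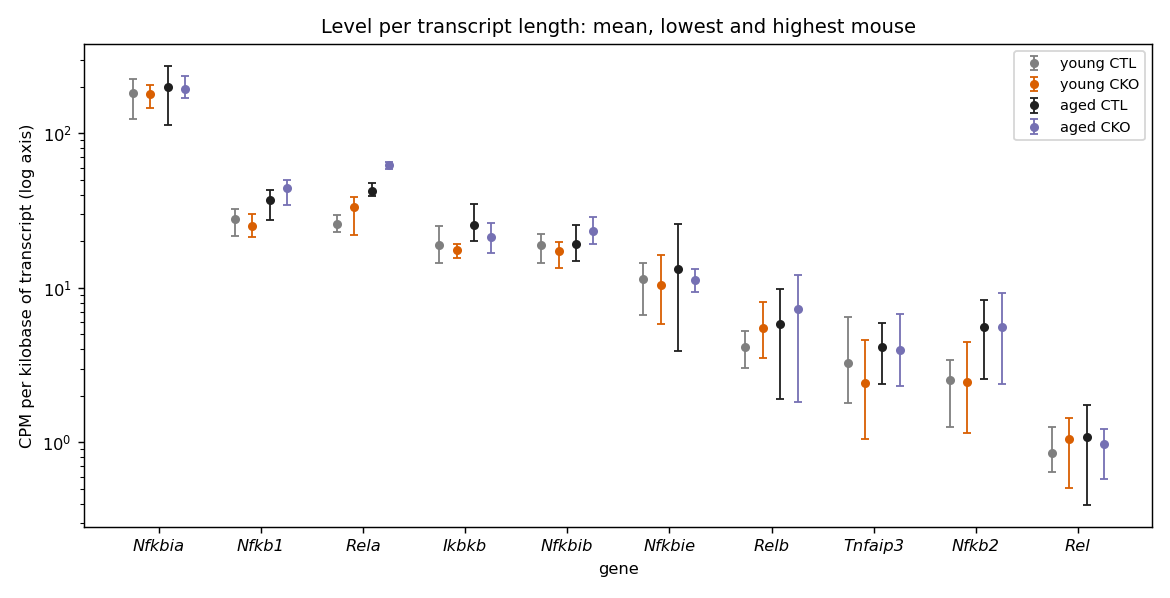
Level of each gene in CPM per kilobase of principal transcript (vertical log axis) in the 4 groups. Points are means over mice and bars reach from the lowest to the highest mouse. Nfkbia lay above the other genes in all 4 groups, Rel was lowest at about 1 CPM per kilobase, and Rela of aged Ythdf2 CKO mice (62.0) lay above its other groups.

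The promoter sequences are shown because several of these genes are targets of the factors they encode or restrain. RefSeq promoter sequences of GRCm38.p6, from 250 bases before to 50 bases after the start of transcription, matched 7 of the 10 genes: Nfkb2, Rel, Rela, Nfkbia, Nfkbib, Nfkbie and Tnfaip3. Both strands of the first listed promoter of each gene were searched for the 10-base κB consensus, the standard binding motif of NF-κB dimers. It was present in 5 of the 7 (71.4%), as 7 separate stretches, and in 8.18% of the promoters of all 27025 genes listed or 9.96% of those of the 9773 tested genes with a promoter. A match is a description of the sequence and not a measured binding site. In the sequences below, written 5′ to 3′ on the strand of the gene, capitals mark the bases covered by the consensus on either strand, with overlapping matches joined.
Nfkbia, chr12:55492657-55492686, minus strand: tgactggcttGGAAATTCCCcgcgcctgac
Tnfaip3, chr10:19015411-19015432, minus strand: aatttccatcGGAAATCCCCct
Tnfaip3, chr10:19015516-19015545, minus strand: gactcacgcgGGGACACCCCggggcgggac
Nfkb2, chr19:46304688-46304717, plus strand: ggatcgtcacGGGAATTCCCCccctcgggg
Nfkb2, chr19:46304716-46304736, plus strand: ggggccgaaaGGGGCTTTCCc
Rel, chr11:23771042-23771071, minus strand: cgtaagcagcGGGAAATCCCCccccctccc
Nfkbie, chr17:45555584-45555613, plus strand: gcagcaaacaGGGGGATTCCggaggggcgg
The capitals began 29 bases upstream of the start in Nfkbia, 12 and 125 bases upstream in Tnfaip3, 39 and 11 in Nfkb2, 92 in Rel and 106 in Nfkbie. Upstream is counted from the start of the first listed RefSeq promoter. In Tnfaip3 and Nfkb2 the stretches lie inside the gene spans given further below, which begin further upstream. The promoters of Rela and Nfkbib held no match in this window. The 250 bases upstream of Nfkbia, the most abundant of these genes, and of Rela, which had the smallest p of the 10 in aged mice and with age, had GC contents of 59.2% and 70.4%. The end of the Rela stretch lies inside the gene span given further below, which begins further upstream than the RefSeq start.
Nfkbia, chr12:55492648-55492897, minus strand: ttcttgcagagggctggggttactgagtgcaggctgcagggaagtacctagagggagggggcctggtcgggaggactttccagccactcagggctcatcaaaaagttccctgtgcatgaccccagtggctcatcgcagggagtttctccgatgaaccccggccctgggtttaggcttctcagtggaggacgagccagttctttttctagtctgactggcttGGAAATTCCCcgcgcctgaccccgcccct
Rela, chr19:5637291-5637540, plus strand: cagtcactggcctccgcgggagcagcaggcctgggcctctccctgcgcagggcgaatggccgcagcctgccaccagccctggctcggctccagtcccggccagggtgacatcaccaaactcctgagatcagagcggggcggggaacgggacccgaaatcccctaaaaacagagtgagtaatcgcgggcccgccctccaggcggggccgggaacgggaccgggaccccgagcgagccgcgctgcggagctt

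The first comparison asked whether these RNAs differed between genotypes in young HSCs. None of the 10 passed an adjusted p of 0.05 in the quasi-likelihood test of edgeR (Benjamini-Hochberg adjustment over 11526 genes), where 20 genes (0.174%) passed. None had an unadjusted p below 0.05 either, against 7.06% of all genes, and none was called by the likelihood ratio test, DESeq2 or limma. The levels of Ythdf2 CTL and Ythdf2 CKO mice overlapped for all 10, whereas 4.77% of all genes had groups that did not overlap. The log2 fold changes were positive for 3 and negative for 7 genes, with a median of −0.06 against 0.00 over all genes tested, of which 49.9% were positive.

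Among the subunits, Rela, which encodes the transactivating p65 subunit, was at 62.5, 65.4, 71.9 and 80.0 CPM in young Ythdf2 CTL mice and at 60.1, 89.2, 105.3 and 105.4 CPM in Ythdf2 CKO mice. Of the Ythdf2 CKO mice 3 were above every control, and mouse 3 was below them all. The log2 fold change was 0.37 ± 0.20 (SE; 95% confidence interval −0.06 to 0.79; p = 0.0886, adjusted p = 0.771 in edgeR's quasi-likelihood test). Nfkb1, the precursor of p50, was at 88.7, 116, 119 and 133.5 CPM in Ythdf2 CTL and at 87.2, 99.3, 107 and 124 CPM in Ythdf2 CKO mice, a log2 fold change of −0.13 ± 0.17 with an interval from −0.50 to 0.24. Its groups overlapped almost completely. Nfkb2, the precursor of p52, ranged from 3.96 to 10.8 CPM in Ythdf2 CTL and from 3.63 to 14.0 CPM in Ythdf2 CKO mice. Rel ranged from 4.82 to 9.40 and from 3.76 to 10.8 CPM, and Relb, the partner of p52 in the non-canonical pathway, from 6.71 to 11.6 and from 7.81 to 17.9 CPM. For these 3 genes, with between 19 and 98 counts per young mouse, the intervals were wide: −1.13 to 1.08 for Nfkb2, −0.76 to 1.34 for Rel and −0.46 to 1.26 for Relb.

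Among the inhibitors, Nfkbia was at 196, 275, 330 and 352 CPM in young Ythdf2 CTL mice and at 231.5, 281, 297 and 326.5 CPM in young Ythdf2 CKO mice. The Ythdf2 CKO mice all lay within the range of the controls, and the log2 fold change was −0.02 ± 0.18, with an interval of −0.40 to 0.36. Nfkbib, which encodes IκBβ, ranged from 29.9 to 46.3 CPM and from 27.7 to 40.9 CPM, and Nfkbie, which encodes IκBε, from 16.2 to 35.4 CPM and from 14.2 to 39.5 CPM. Their log2 fold changes were −0.11 ± 0.23 and −0.11 ± 0.34. Tnfaip3 encodes A20, a ubiquitin-editing enzyme that limits signaling to the kinase. It was at 7.92, 10.1, 10.6 and 28.7 CPM in Ythdf2 CTL mice, where mouse 2 stood far above the others, and at 4.66, 7.495, 10.7 and 20.3 CPM in Ythdf2 CKO mice. Its log2 fold change was −0.42 ± 0.51, and 0.18 without control mouse 2. Ikbkb, which encodes the catalytic kinase IKKβ, was at 51.9, 55.3, 73.6 and 90.5 CPM in Ythdf2 CTL mice and between 55.5 and 69.3 CPM in Ythdf2 CKO mice, with a log2 fold change of −0.10 ± 0.21.

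Reads of Y-linked genes were present in 3 of 4 young Ythdf2 CTL and 1 of 4 young Ythdf2 CKO mice, so the sexes were not balanced. With these reads as a covariate none of the 10 genes was called, and the log2 fold change of Rela was 0.47 (adjusted p = 0.713 in edgeR's quasi-likelihood test). Megakaryocyte and platelet markers, 8 of 9 of them in the table, summed to 604 to 991 CPM in young Ythdf2 CTL and to 1179 to 3336 CPM in young Ythdf2 CKO mice. Pf4 alone had means of 440 and 1529 CPM in these groups. The log2 fold change was positive for 6 of the 8 genes and negative for 2. The 14 HSC markers summed to 1907 to 2364 CPM in young Ythdf2 CTL and to 2408 to 3142 CPM in young Ythdf2 CKO mice, also without overlap. Of these 14 genes 9 had a positive and 5 a negative log2 fold change, with a median of 0.06. Ly6a alone had means of 280 CPM in Ythdf2 CTL and 643 CPM in Ythdf2 CKO mice. The part of these lists in the levels of the 10 genes was not tested.

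**Figure D2:**
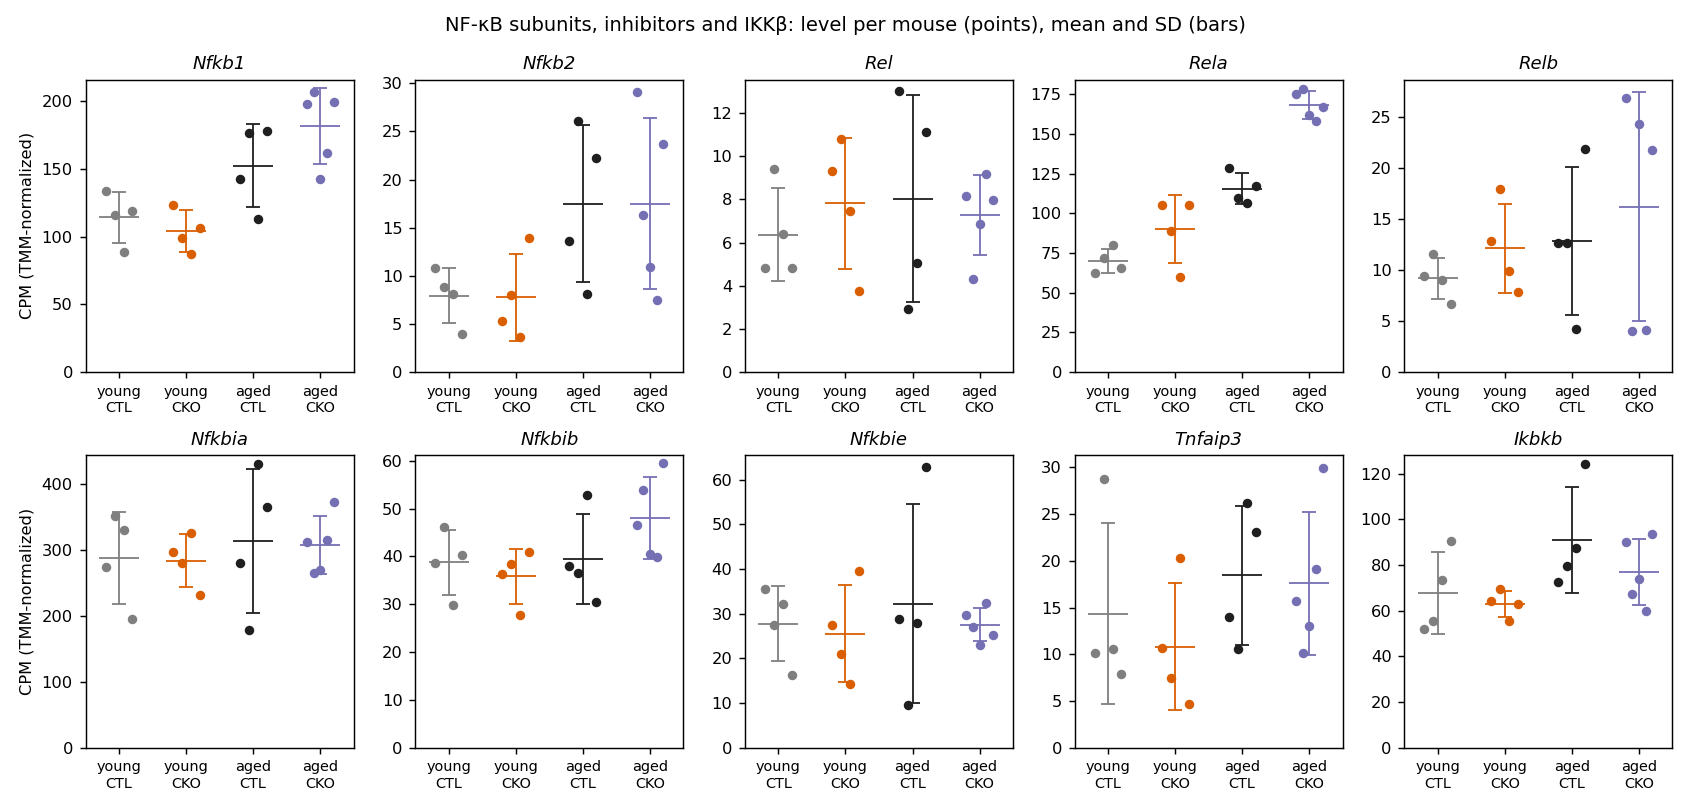
Level of each of the 10 genes in every mouse, as TMM-normalized CPM (vertical axis, one scale per gene), in young and aged Ythdf2 CTL and Ythdf2 CKO mice. Each point is a mouse and the bars give the mean and SD. The groups overlapped for each gene and each genotype comparison except Rela in aged mice, where the 5 Ythdf2 CKO mice sat between 159 and 178 CPM and the 4 Ythdf2 CTL mice between 107 and 129 CPM.

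The second comparison asked the same of aged HSCs. No gene of 11961 was called by edgeR's quasi-likelihood test after Benjamini-Hochberg adjustment (0%), although 1208 (10.1%) had an unadjusted p below 0.05, and the likelihood ratio test over mice called 76 and DESeq2 104. Of the 10 genes, 1 had such a p, Rela. The log2 fold changes were positive for 5 and negative for 5 of the 10, against 49.7% positive among all genes. Rela was at 107, 110, 118 and 129 CPM in aged Ythdf2 CTL mice and at 159, 162, 167, 176 and 178 CPM in aged Ythdf2 CKO mice. Every Ythdf2 CKO mouse was above every Ythdf2 CTL mouse, a separation seen in this direction for 1.78% of all genes tested. The mean was 1.46 times the control mean, and the log2 fold change was 0.55 ± 0.15 (SE; interval 0.22 to 0.87; p = 0.00285, adjusted p = 0.312 in edgeR's quasi-likelihood test). Mouse 121, at 176 CPM, and mouse 124, at 110 CPM, lay with the mice of their labelled genotype for Rela, unlike for Ythdf2. Without these 2 mice the log2 fold change was 0.50 (p = 0.00894, adjusted p = 0.243 in the same test). None of the 10 was called without them, and the other genes were at 0.30 (Nfkb1), 0.0061 (Nfkb2), −0.45 (Rel), 0.09 (Relb), −0.23 (Nfkbia), 0.25 (Nfkbib), −0.55 (Nfkbie), −0.23 (Tnfaip3) and −0.36 (Ikbkb).

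Rela was called in aged mice by DESeq2 over mice (log2 fold change 0.54, adjusted p = 0.0413) and by the likelihood ratio test with each library as a replicate (0.57, adjusted p = 0.0372), and by none of the other 20 alternatives. The latter test treats libraries of the same mouse as independent, which they are not. Over all 22 alternatives it was positive, between 0.46 and 0.68, with adjusted p-values from 0.0372 to 0.653. By library, the 10 libraries of aged Ythdf2 CKO mice lay between 140 and 194 CPM (median 174) and the 7 libraries of aged Ythdf2 CTL mice between 57.5 and 152 CPM (median 111). The highest libraries of the control mice, 151 CPM in 114 A and 152 CPM in 124 B, were thus above the lowest library of the Ythdf2 CKO mice, 140 CPM in 78 B. Library 124 A, at 57.5 CPM, was the lowest of the aged libraries. Megakaryocyte and platelet markers summed to 445 to 732 CPM in aged Ythdf2 CTL and to 651 to 2369 CPM in aged Ythdf2 CKO mice. All 8 genes in the table had a positive log2 fold change, and Pf4 alone had means of 233 and 961 CPM. Mouse 121, at 651 CPM, was the lowest Ythdf2 CKO mouse and lay within the control range for these markers. Their part in the Rela level was not tested.

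**Figure D3:**
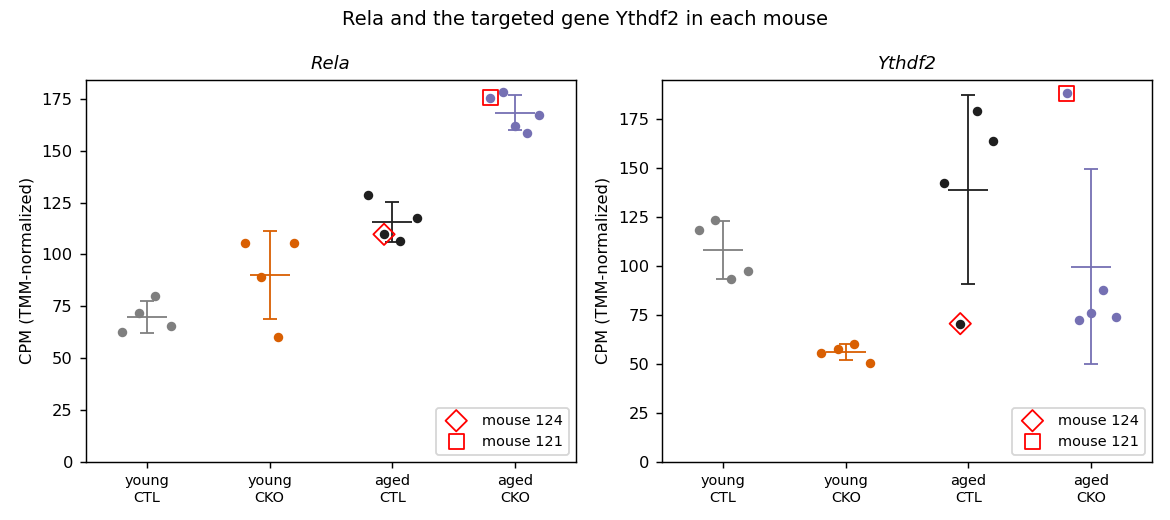
TMM-normalized CPM of Rela (left) and Ythdf2 (right) in every mouse of the 4 groups, with mean and SD. The square marks aged Ythdf2 CKO mouse 121 and the diamond aged Ythdf2 CTL mouse 124. For Ythdf2 the marked mice were the highest and the lowest of the aged mice, at 188 and 70.5 CPM, whereas for Rela they lay with their labelled genotype, at 176 and 110 CPM.

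The other subunits overlapped between aged genotypes. Nfkb1 was at 113, 142.5, 176 and 178 CPM in Ythdf2 CTL and at 142.5, 162, 198, 199.7 and 207 CPM in Ythdf2 CKO mice, a log2 fold change of 0.26 ± 0.19 (interval −0.15 to 0.67, adjusted p = 0.689 in edgeR's quasi-likelihood test). Nfkb2 ranged from 8.08 to 26.1 CPM and from 7.499 to 29.1 CPM (log2 fold change 0.01 ± 0.48). Rel ranged from 2.94 to 13.04 CPM and from 4.30 to 9.15 CPM (−0.13 ± 0.58). Relb showed 2 sets of values within the Ythdf2 CKO mice, 4.02 and 4.09 CPM in mice 122 and 81 and 21.8, 24.4 and 26.8 CPM in mice 94, 78 and 121. Its controls were at 4.20, 12.6, 12.7 and 21.9 CPM, and the log2 fold change was 0.36 ± 0.65.

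The inhibitors did not pass either. Nfkbia was at 179, 280, 366 and 431 CPM in aged Ythdf2 CTL and at 266, 270, 313, 316 and 374 CPM in aged Ythdf2 CKO mice. As in young mice the Ythdf2 CKO values lay inside the range of the controls, and the log2 fold change was −0.02 ± 0.23, with an interval of −0.52 to 0.47. Nfkbib ranged from 30.5 to 52.9 CPM and from 39.8 to 59.5 CPM (0.29 ± 0.25, adjusted p = 0.749) in edgeR's quasi-likelihood test. Nfkbie ranged from 9.53 to 62.7 CPM in the controls and from 23.05 to 32.4 CPM in Ythdf2 CKO mice. Its log2 fold change was −0.22 ± 0.42 and was 0.31 without control mouse 99. Tnfaip3 was between 10.5 and 26.2 CPM and between 10.2 and 29.97 CPM (−0.06 ± 0.42), and Ikbkb between 72.5 and 124 CPM and between 60.0 and 93.6 CPM (−0.23 ± 0.22).

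The next comparison asked whether the effect of genotype depended on age. None of the 10 genes was called in edgeR's quasi-likelihood test over the 17 mice, as none of 12352 genes was (0%), and none had an unadjusted p below 0.05, against 4.76% of all genes, while the likelihood ratio test over mice called 4 genes in all. Neither DESeq2, limma nor the likelihood ratio test called any of the 10. The differences of log2 fold changes, aged minus young, ran from −0.42 for Rel to 0.39 for Nfkb1 and Nfkbib, with 5 positive, against 48.1% of all genes. These values depended on the library used: with library A and library B alone Rel was at −0.91 and 0.59, Nfkb1 at 0.07 and 0.82, and Tnfaip3 at 1.16 and −0.90. For Rela, with 0.37 in young and 0.55 in aged mice, the difference was 0.18 ± 0.24, with an interval from −0.32 to 0.68. An effect of equal size, a smaller one and a much larger one in aged mice were thus all within its error. Without mice 121 and 124 it was 0.14, with −0.74 for Rel and −0.43 for Nfkbie, and none of the 10 was called.

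The last comparison set aged against young Ythdf2 CTL mice, whose libraries also differ in the code of their names. Reads of Y-linked genes were present in 3 of 4 young and 1 of 4 aged mice, and with them as a covariate Rela was still called (0.78, adjusted p = 0.00980 in edgeR's quasi-likelihood test). In edgeR's quasi-likelihood test 1825 of 12352 genes were called (14.8%), 6.7% of all as higher and 8.07% as lower in aged mice. The median log2 fold change of all genes was 0.11, and 55.8% were positive. All 10 genes had a positive log2 fold change, with a median of 0.39, and 1 of the 10, Rela, was called. The shared sign did not hold with library B alone, where 5 of the 10 were negative: Nfkb1 (−0.18), Rel (−0.78), Relb (−0.46), Nfkbib (−0.32) and Nfkbie (−0.73). Under limma Rel was at −0.53 and Nfkbie at −0.76, and Nfkbie was at −0.34 without aged mouse 99. Of 200 values of the 10 genes under the alternatives, 18 were negative, none of them for Rela, Nfkb2 or Ikbkb. Rela lay between 62.5 and 80.0 CPM in young and between 107 and 129 CPM in aged Ythdf2 CTL mice without overlap, as 7.11% of all genes did in this direction. Its mean was 1.65 times the young mean, and the log2 fold change was 0.72 ± 0.17 (adjusted p = 0.00936), or 0.61 relative to the median of all genes. It was called in 18 of 20 alternatives, among them all 8 that left out a mouse and the one without mice 121 and 124 (0.75, adjusted p = 0.00890). With library A alone Rela was at 0.83 (adjusted p = 0.0518) and Nfkb1 was the only one of the 10 that was called (0.88, adjusted p = 0.0432), and with library B alone no gene of the 10 was called, Rela was at 0.60 (adjusted p = 0.155) and Nfkb1 at −0.18.

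Unadjusted p-values below 0.05, which 29.9% of all genes had, were also found for Nfkb1 (0.41 ± 0.19, p = 0.0372, adjusted p = 0.139) and Nfkb2 (1.14 ± 0.52, p = 0.0401, adjusted p = 0.146) in the quasi-likelihood test of age. The mean of Nfkb2 was 7.93 ± 2.87 CPM in young and 17.5 ± 8.17 CPM in aged mice (SD, n = 4 each), but aged mouse 65, at 8.08 CPM, remained within the range of young mice. Nfkb2 was at 1.66 with library A alone and at 0.19 with library B alone, and at 0.85 without aged mouse 124, whose library A was at 51.0 CPM and library B at 3.87 CPM. Ikbkb was at 0.42 ± 0.22 on the log2 scale (adjusted p = 0.210). The inhibitors were closer to the median of all genes, at 0.12 ± 0.22 for Nfkbia, 0.03 ± 0.24 for Nfkbib and 0.20 ± 0.41 for Nfkbie. Whether subunits and inhibitors differed from each other in this comparison was not tested. Immediate early genes, which respond within minutes to many stimuli and to cell handling, were examined beside these values. They summed to 1884 to 3928 CPM in young and to 3309 to 5793 CPM in aged Ythdf2 CTL mice, 7 of the 16 in the table were called higher. Monocyte and macrophage markers summed to 761 to 839 CPM in young and to 394 to 716 CPM in aged Ythdf2 CTL mice, and lymphoid markers, 5 of 12 of them in the table, to 478 to 610.2 CPM and to 197 to 369 CPM, both without overlap. Most of each sum came from 1 gene. Lyz2 had means of 758 CPM in young and 575 CPM in aged mice, and Nkg7 had means of 442 and 232 CPM. The sums thus say little about the other genes of these lists. The part of these lists in the levels of the 10 genes was not tested. Both the age comparison and the aged genotype comparison of Rela rest on the same 4 aged Ythdf2 CTL mice.

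**Figure D4:**
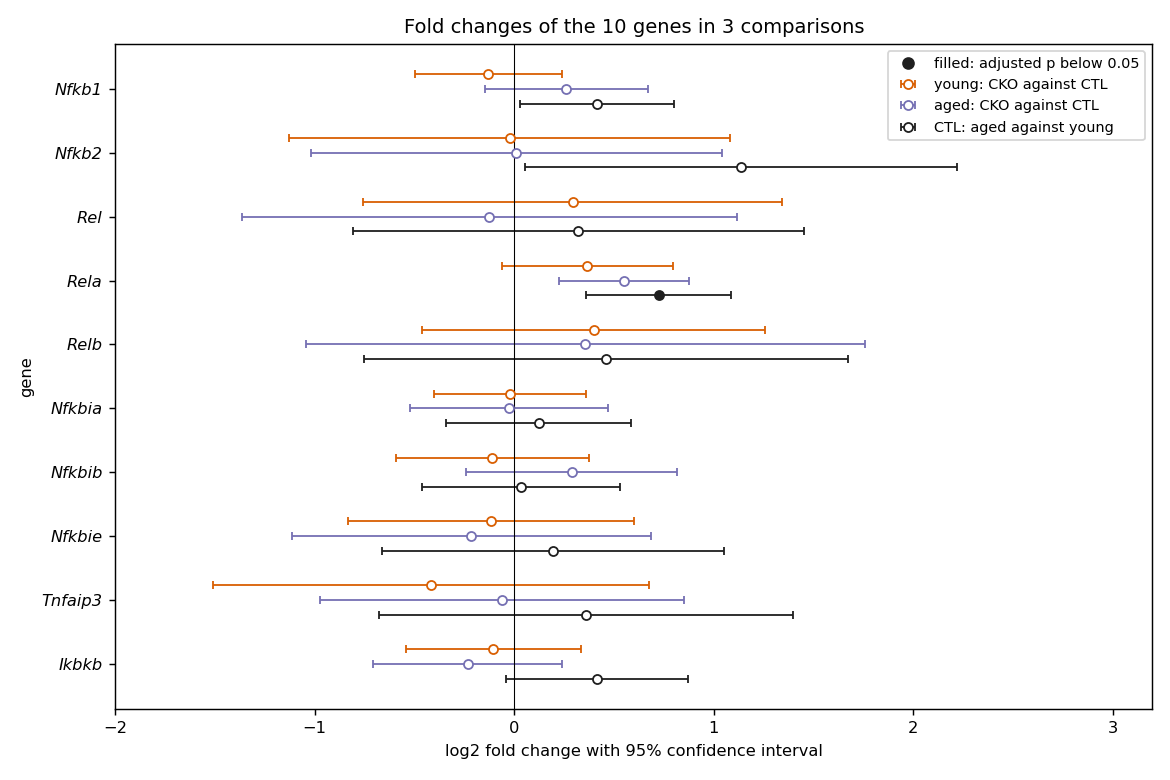
Log2 fold changes with 95% confidence intervals (horizontal axis) of the 10 genes (vertical axis) for genotype in young mice, genotype in aged mice and age in Ythdf2 CTL mice. Filled points had an adjusted p below 0.05. Rela in the comparison of ages (0.72) was the only filled point, and the intervals of Nfkb2, Rel, Relb and Tnfaip3 were the widest.

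The libraries of a mouse were compared with each other. Over the 16 mice with 2 libraries, the SD between libraries of a mouse, in log2 CPM, was 0.36 for Rela and 0.43 for Nfkb1 and reached 1.05 for Relb, while the SD between mice of a group was 0.20, 0.24 and 0.82. The former is the spread of single libraries and the latter that of means of 2 libraries, so they are not like quantities, and how much of the spread between mice comes from the libraries was not tested. Nfkbia, with at least 409 counts in a library, had 0.30 between libraries and 0.35 between mice. Relb had no counts in library A of young Ythdf2 CTL mouse 1 and 43 counts in its library B, and Nfkbie had no counts in library A of aged Ythdf2 CTL mouse 124 and 68 in its library B. A count of 0 allows up to 3 counts, and this limit covers counting error only, since the libraries carry no molecular identifiers. Libraries A and B of a mouse were never alike within counting error: their chi-square over all genes, divided by its degrees of freedom, was 9.93 or more.

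**Figure D5:**
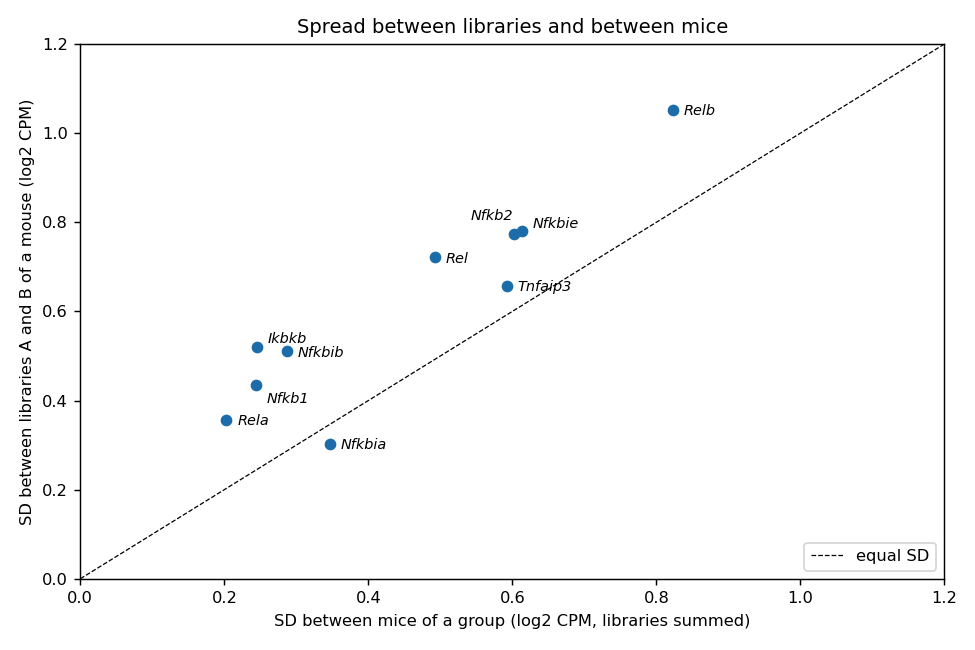
SD between libraries A and B of a mouse (vertical axis) against the SD between mice of a group (horizontal axis), both in log2 CPM, one point per gene. The dashed line marks equal SDs, but single libraries are set against means of 2 libraries, so a place above it does not show that libraries vary more than mice. Nfkbia lay below it, and Relb had the largest values on both axes (1.05 and 0.82).

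Between mice of one group the coefficient of variation had a median over the 10 genes of 25.3% in young Ythdf2 CTL, 29.9% in young Ythdf2 CKO, 37.5% in aged Ythdf2 CTL and 18.3% in aged Ythdf2 CKO mice, beside 22.99%, 27.7%, 38.5% and 25.5% over all genes tested. Rela varied least of the 10 in 3 groups, with 11.1% in young Ythdf2 CTL, 8.53% in aged Ythdf2 CTL and 5.07% in aged Ythdf2 CKO mice, and Ikbkb varied least in young Ythdf2 CKO mice, with 9.07%. Tnfaip3 varied most in both young groups, with 67.4% and 63.0%.

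How the genes varied together was described with log2 CPM centered within the 4 groups over the 17 mice (17 points from mice that differ in depth). The 45 pairs of the 10 genes had Pearson r values from −0.41 to 0.80 with a median of 0.12, and 32 were positive. The highest was that of Nfkbia and Tnfaip3 (r = 0.80), both feedback inhibitors of the pathway, followed by Nfkb1 and Nfkb2 (r = 0.60), the precursors of p50 and p52. The lowest was Rela with Tnfaip3 (r = −0.41), and Nfkb1 and Nfkbia were also negative (r = −0.35). Of 12351 other genes, the 3 most like Nfkbia were Tsc22d3 (r = 0.89), known as a glucocorticoid-induced gene, Ddit3 (r = 0.86), a gene of the integrated stress response, and Asb13 (r = 0.86). The 3 most like Nfkb1 were Ppp1r15b (r = 0.88), which encodes a regulatory subunit of the eIF2α phosphatase, Acaa1a (r = 0.86), a peroxisomal thiolase, and Zfp281 (r = 0.86), a zinc finger gene. They are the highest of many values over few mice. The summed level of immediate early genes had r values between −0.32 and 0.31 with the 10 genes.

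Because YTHDF2 binds m6A-modified RNA, the letters GGACT, a common form of the m6A consensus, were counted on the sense strand of the principal transcript of each gene (GENCODE M21, GRCm38). They occurred in all 10 genes and in 91.9% of the 11832 tested genes with such a transcript. Densities ran from 0.402 per kilobase in Rel and 0.485 in Nfkbib to 2.21 in Rela, 2.23 in Nfkb2 and 2.49 in Tnfaip3, the last with 11 occurrences and a density at or above that of 94.7% of genes. The median over the 10 genes was 1.10 per kilobase and over all genes 1.05. Methylation was not measured in these libraries, and the letters are not sites.

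The genes lie apart in the genome. On GRCm38 Nfkb1 spans chr3:135584655-135691547, Nfkb2 chr19:46304320-46312385, Rel chr11:23736847-23770970, Rela chr19:5637483-5648130 and Relb chr7:19606217-19629438. Nfkbia spans chr12:55489410-55492647, Nfkbib chr7:28758251-28767512, Nfkbie chr17:45555703-45563169, Tnfaip3 chr10:19000910-19015657 and Ikbkb chr8:22659212-22706589. Reads of a gene were counted over its exons as a whole, so the values do not separate transcript forms.

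Other genes of the pathway, 45 listed adaptors, ubiquitin enzymes and kinases, were all in the table. In young mice 0 of the 44 tested were called by genotype in edgeR's quasi-likelihood test, beside 0.174% of all genes. An unadjusted p below 0.05 was found for 2 of them, beside 7.06% of all genes, and the median log2 fold change was 0.02. The 3 with the smallest p were Ripk1 (0.69 ± 0.25, adjusted p = 0.512), the kinase that links the TNF receptor to NF-κB, Pdlim2 (0.67 ± 0.26, adjusted p = 0.567), which encodes a ligase that targets nuclear p65, and Otulin (0.32 ± 0.15, adjusted p = 0.713), which removes linear ubiquitin chains. In aged mice 0 of 45 were called (4 at an unadjusted p below 0.05, beside 10.1% of all genes) and the median was 0.10. Rbck1, a subunit of the linear ubiquitin ligase complex, was at 110.5 to 186 CPM in Ythdf2 CTL and at 211 to 262 CPM in Ythdf2 CKO mice without overlap (0.65 ± 0.18, adjusted p = 0.321 in the same test). Traf2, an adaptor of TNF receptors, was at 79.6 to 108 and at 57.0 to 70.8 CPM, also without overlap (−0.50 ± 0.18, adjusted p = 0.398), and Tnip2, a partner of A20, had 0.64 ± 0.25 (adjusted p = 0.419). Groups that do not overlap in either direction were found for 3.48% of all genes in aged mice.

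Of 42 listed NF-κB target genes beside the 10, 36 were in the table. In young mice 0 of 29 tested were called by genotype in edgeR's quasi-likelihood test. An unadjusted p below 0.05 was found for 3 of them, beside 7.06% of all genes, and 19 were positive, with a median of 0.17. Ccnd1, which encodes cyclin D1, was at 6.39 to 18.9 CPM in Ythdf2 CTL and at 21.8 to 32.7 CPM in Ythdf2 CKO mice without overlap (1.31 ± 0.36, adjusted p = 0.284). Tnfrsf1b, the second TNF receptor, was at 35.4 to 48.9 and 51.0 to 128 CPM, also without overlap, as 4.77% of all genes were (0.85 ± 0.26, adjusted p = 0.375), and the chemokine gene Ccl3 had 1.75 ± 0.57 (adjusted p = 0.442) at 2.47 to 6.02 CPM in the controls, against 31.6 CPM in Ythdf2 CKO mouse 3 and 4.81 to 11.9 CPM in the other Ythdf2 CKO mice. In aged mice 0 of 31 were called (7 at an unadjusted p below 0.05, beside 10.1% of all genes), with 14 positive and a median of −0.04. Vcam1, which encodes an adhesion molecule, was at 10.2 to 19.3 CPM in aged Ythdf2 CTL mice and at 0 to 1.58 CPM in aged Ythdf2 CKO mice, or at most 12 counts (−4.53 ± 0.81, adjusted p = 0.205 in the same test). The next smallest p-values belonged to Cflar, an inhibitor of caspase activation (−1.07 ± 0.30, adjusted p = 0.315), and the immediate early gene Junb (0.99 ± 0.32, adjusted p = 0.361).

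With age in Ythdf2 CTL mice, 5 of 45 pathway genes were called higher and 2 lower in the quasi-likelihood test, beside 6.7% and 8.07% of all genes. Ripk1 (1.01 ± 0.25), Pdlim2 (0.92 ± 0.29), Tnip1 (0.85 ± 0.28), Traf2 (0.74 ± 0.23) and Rbck1 (0.68 ± 0.19) were higher in aged mice, whereas Commd1, an inhibitor of NF-κB (−0.86 ± 0.22), and Ube2n, a ubiquitin-conjugating enzyme (−0.65 ± 0.18), were lower, on the log2 scale. Of 33 target genes tested 6 were higher and 2 lower. Bcl2l1, an antiapoptotic gene (1.25 ± 0.31), Cflar (1.17 ± 0.30), Ccnd1 (1.63 ± 0.42), Junb (0.99 ± 0.32) and Tnip1 were higher, and so was Ptgs2, which had 0 or 1 count per mouse in young and 0 to 59 counts in aged Ythdf2 CTL mice. B2m (−0.78 ± 0.18) and Fth1 (−0.72 ± 0.19) were lower. As for Rela, age and the code in the library names cannot be told apart in these values. For the difference between ages in the genotype effect, 0 of 45 pathway and 0 of 33 target genes were called by that test. Of these, 1 and 3 had an unadjusted p below 0.05, beside 4.76% of all genes. The smallest p-values were those of Rbck1 (0.55 ± 0.27), Map3k7 (0.66 ± 0.41) and Traf6 (0.70 ± 0.43) among pathway genes and of Vcam1 (−3.81 ± 0.99), Cflar (−0.96 ± 0.41) and Il1b (2.96 ± 1.31) among target genes.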

How the data were processed

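HSC RNA-seq counts were analyzed for 17 mice. For the authors' table, HISAT2 placed the reads on GRCm38 and Rsubread gave gene counts. The deposited counts are raw whole numbers in 13108 gene rows for 34 libraries. The annotation, the use of strand and the treatment of reads shared by several genes are not given in the sources used here. One library was left out, and libraries A and B of each mouse were summed, so that mice are the replicates. The mice are separate animals by their labels.

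Counts were tested in R 4.3.3 with edgeR 4.0.16: filterByExpr (minimum count 10, minimum total 15), TMM scaling, and the quasi-likelihood test, with Benjamini-Hochberg adjusted p-values over all genes and a threshold of 0.05. Each age was fitted alone, and the age contrasts came from one fit of 17 mice. Standard errors were taken as the absolute log2 fold change over the root of the F statistic. Log2 CPM used a prior count of 2. Ythdf2 was compared by an exact permutation test. The tests were checked on simulated counts.

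The 10 genes, the gene lists and the tests were chosen with earlier results of these data known. Named genes beside the 10 were those called in the pathway or target list, or the 3 with the smallest p where fewer than 3 were called, and the 3 genes most like Nfkbia and Nfkb1. Alternatives were the likelihood ratio test over mice or libraries, DESeq2 1.42.0, DESeq2 size factors, other filters, limma 3.58.1 (voom, mouse as a random effect), a Y-linked covariate, either library alone, replicate blocks, one fit of all mice, and mice left out. Promoter sequences came from RefSeq and transcripts from GENCODE M21.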

Additional observations from a re-analysis of the deposited data

Results flagged for a closer look

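Values that stood far from the rest of their group were sought in the 10 genes and Ythdf2 with Dixon's criterion in groups of 4 or 5 mice. Of 44 groups examined 2 held such a value, and chance gives 2.2. Tnfaip3 was at 28.7 CPM in young Ythdf2 CTL mouse 2, against 10.6 CPM in the next mouse. Ythdf2 was at 188 CPM in the library pool labelled aged Ythdf2 CKO 121, against 87.8 CPM in the next mouse of that group.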

How the results depend on the processing

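Only Rela changed its call in a comparison of genotypes. No gene of the 10 was called in young mice or for the difference between ages under any alternative run. The cause of the shifts below was not tested. Genes called in young mice numbered 67 with the likelihood ratio test over mice, 90 over libraries, 77 with DESeq2, 10 with the Y-linked covariate, 0 with library A or library B alone, 1 in one fit of 17 mice, and 0 to 18 with a mouse left out. Young mice of equal number in the 2 genotypes had r from −0.04 to 0.06 over all genes, and those of unequal number from −0.17 to 0.16. These values cannot show whether equal numbers mark pairs. With the mouse number as a replicate block Nfkbia was at 0.0067. With the library letter as a replicate block 50 genes were called in young and 40 in aged mice, Nfkb2 was at 0.0093 in young, and Nfkbia and Nfkbie were at 0.0078 and 0.0035 in aged mice. In aged mice 76 genes were called with the likelihood ratio test over mice, 420 over libraries, 104 with DESeq2, 5 in one fit of 17 mice, 40 without mice 121 and 124, and 0 to 16 with a mouse left out, 16 of them without mouse 121. DESeq2 and the likelihood ratio test over libraries each called 1 of the 10, Rela, at 0.54 and 0.57. For the difference between ages 4, 3 and 15 genes were called with the likelihood ratio test over mice, over libraries and without mice 121 and 124, and 0 to 2 with a mouse left out. For age, 94 genes and 0 of the 10 were called with library B alone, and 896 to 2048 genes with a mouse left out. Rela was then at 0.60 with library B and 0.83 with library A, and Nfkb1 at −0.18 and 0.88.

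Signs also turned. In young mice this was so for Nfkb2 (0.0079 with the likelihood ratio test over libraries, 0.16 with the Y-linked covariate, 0.017 with library A, 0.012 with library B), Nfkbia (0.20 with the covariate, 0.15 with library A), Nfkbie (0.22 and 0.31), Nfkb1 (0.15 with library A) and Tnfaip3 (0.62 with library B). With a mouse left out Nfkb2 ran from −0.48 to 0.21, Nfkbia from −0.17 to 0.10, Nfkbie from −0.41 to 0.086, Tnfaip3 from −0.92 to 0.18 and Ikbkb from −0.21 to 0.062. In aged mice Nfkb2 was at −0.0016 with DESeq2, −0.0017 with its size factors, −0.0047 with a minimum count of 30, −0.0060 with the covariate and −0.29 with library A. Limma gave 0.82 for Rel, 0.045 for Nfkbia and 0.94 for Nfkbie. The likelihood ratio test over libraries gave 0.0059 for Nfkbia, library A gave 0.083 for Nfkbia and 0.15 for Tnfaip3, and library B gave 0.70 for Rel, 0.29 for Nfkbie and 0.0018 for Ikbkb. With a mouse left out Nfkb2 ran from −0.25 to 0.26, Rel from −0.42 to 0.21, Nfkbia from −0.23 to 0.15, Nfkbie from −0.53 to 0.31 and Tnfaip3 from −0.35 to 0.15. With age, beside library B alone, Nfkbie turned under the likelihood ratio test over libraries (−0.08), limma (−0.76), the letter block (−0.03) and without young mouse 4 (−0.0019) or aged mouse 99 (−0.34), Nfkbib with the covariate (−0.08) and without aged mouse 65 (−0.15) or young mouse 3 (−0.09), Rel under limma (−0.53) and without aged mouse 114 (−0.05), Nfkbia without aged mouse 65 (−0.08) or young mouse 4 (−0.03), and Tnfaip3 with library A (−0.03). For the difference between ages, over 29 alternatives, Nfkb1 (0.07 to 0.82), Rela (0.02 to 0.26) and Nfkbib (0.17 to 0.79) kept their sign, whereas Nfkb2 ran from −0.30 to 0.70, Rel from −0.91 to 0.59, Relb from −0.52 to 0.71, Nfkbia from −0.21 to 0.24, Nfkbie from −0.51 to 1.00, Tnfaip3 from −0.90 to 1.16 and Ikbkb from −0.30 to 0.07. Of 210, 220, 290 and 200 values of the 10 genes under alternatives (young, aged, by age, age), 23, 32, 43 and 18 had another sign.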
